A study of Mus musculus with 11 samples.

Results

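Uninjured dorsal root ganglia of aged mice were compared with those of young mice. The members were the arrays that the labels title Old Naïve (24 months, 2 arrays) and Young Naïve (2 months, 3 arrays), 5 of the 11 labelled arrays of the study. Both groups were C57/BL6 mice, and the labels give no transgene, allele or agent. Total RNA came from L4 and L5 ganglia at day 0, that is, without the sciatic nerve crush that the other 6 arrays had received 5 days earlier (Young Pre-conditioned and Old Pre-conditioned, 3 arrays each). RNA was measured on Illumina bead arrays, on which each probe reports a hybridisation intensity. The labels do not state if each array stands for its own animal or for a pool of ganglia. The p-values therefore describe the spread among these 5 arrays and their injured counterparts, and that spread may be technical.

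Dorsal root ganglia hold the cell bodies of the sensory neurons that send one axon branch to skin, muscle and viscera and another to the spinal cord. Each cell body is wrapped by satellite glia, the axons are ensheathed by Schwann cells, and macrophages, fibroblasts and blood vessels fill the space between them. When a peripheral axon is cut or crushed, the neuron switches on a set of genes, among them the transcription factor gene Atf3 and the neuropeptide gene Npy, which uninjured sensory neurons express little.

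Of 10 listed markers of sensory neurons, 8 were measured and served to check the sensory ganglion label. Their levels lay between the 49.8th and the 99.7th percentile of all probes on the naive arrays. Tubb3 was at the bottom, and Avil, which encodes the actin regulator advillin, at the top. Of these 8 markers, 0 differed between the ages at an adjusted p under 0.05 in limma. Only 0.13% of all genes did, so this count does not show equal levels. Both old naive arrays lay below every young one for Pou4f1, Prph, Scn10a, Avil and Nefh, as for 11.4% of all genes. They lay above for Isl1, as for 16% of all genes, and overlapped for P2rx3 and Tubb3. Pou4f1 had the smallest p (-0.33, limma, adjusted p = 0.653). Median intensities before normalization were 206, 206 and 187 in the young naive arrays and 191 and 171 in the old ones. The correlation between the old naive arrays was 0.9915, and that between any young naive pair lay between 0.9937 and 0.9949. Of the sex chromosome genes, Kdm5d differed by -0.22, Eif2s3y by -0.50, Uty by 0.03 and Xist by 0.00, and none of the 4 passed the test. Among the injured arrays, Young Pre-conditioned 3 and Old Pre-conditioned 1 stood apart from their groups. On the former, skeletal muscle genes read 1.31 above the young naive mean, and the latter correlated with its own group at 0.985. Where leaving out either of them ended a call among injured ganglia, the value without it is given beside it.

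Levels are log2 normalized intensities, and differences are old minus young on that scale, with the standard error of the fit. A gene was taken to rise or fall where limma's Benjamini-Hochberg adjusted p over 11529 genes was under 0.05. Between the ages, 15 genes changed, 0.13% of those tested. Of these, 9 rose with age (0.0781%) and 6 fell (0.052%). At an unadjusted p under 0.05 there were 377 higher genes (3.27%) and 373 lower ones (3.24%). The old and young arrays did not overlap for 1839 higher genes (16%) and for 1309 lower genes (11.4%), so a lack of overlap alone was common. With 1 naive array left out the number that passed was 4 (young naive 1), 7 (young naive 2), 5 (young naive 3), 6 (old naive 1) or 2 (old naive 2). Ccl8 and Csprs passed whichever was left out, Tyrp1 and Hoxb5 did so except without old naive 2, and the other 11 genes each missed the threshold without at least 1 array. The median difference over all genes was 0.0131, and 46.5% of genes had a negative difference. Among the genes that rose were those of a chemokine, an injury-induced transcription factor, a neuropeptide and proteins of lipid handling and cell adhesion. Those that fell encode matrix proteins and a collagen chaperone, a pigment enzyme, a homeodomain factor and a neuronal protein. These RNAs come from whole ganglia, in which fewer cells of a type and less RNA per cell cannot be told apart.

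**Figure D1:**
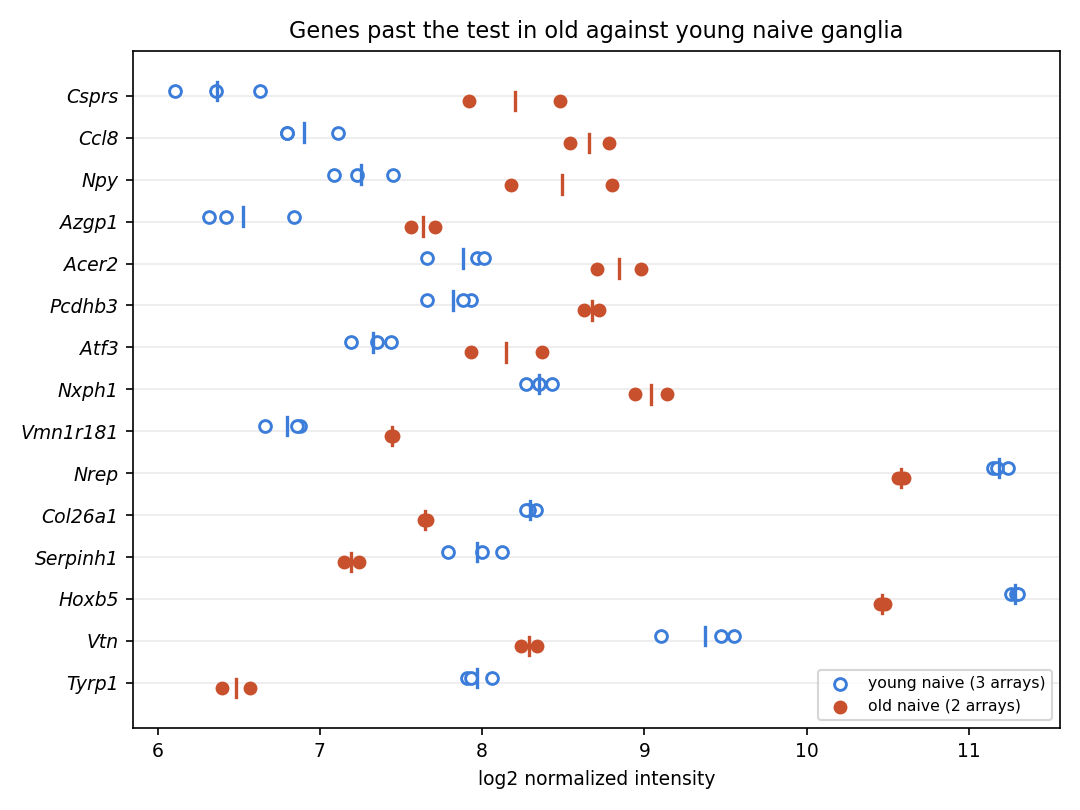
Log2 normalized intensity (horizontal axis) of the 15 genes that passed the test, on each naive array. Open blue points are the 3 young arrays, filled red points the 2 old ones, and vertical bars the group means. For every gene shown the old and young points do not overlap.

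Ccl8 encodes a monocyte-attracting chemokine. Its level was 7.11, 6.80 and 6.80 on the young naive arrays and 8.54 and 8.78 on the old ones. Both old values lay well above every young value. The gene rose by 1.76 ± 0.16, or 3.38-fold (limma, adjusted p = 0.00139). Ccl8 was the only gene of the 15 that stayed past the threshold in every setting in which it was tested, with differences from 1.24 to 1.88. In the injured ganglia it read 9.28, 8.87 and 9.31 in young and 10.85, 11.08 and 10.71 in old mice, a difference of 1.73 ± 0.15 (limma, adjusted p = 0.000308). Every old array lay above every young one there too, and both ages were higher than in naive ganglia. Of 25 measured chemokine and cytokine genes, Ccl8 alone passed in this fit. Ccl12 (0.51, adjusted p = 0.73) and Ccl19 (0.42, adjusted p = 0.711), both chemokines, had an unadjusted p under 0.05 and did not pass in limma, as did Tgfb2 (-0.46, adjusted p = 0.519), a TGF-beta ligand. The list's median was 0.05.

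The Ccl8 promoter is shown because this gene passed the threshold in every setting in which it was tested. It is chr11:82114935-82115184 of GRCm38.p6, plus strand, the 250 bases before the start in RefSeq. The capitals mark the motif TATAAA, which begins 32 bases before the start. It was searched for on both strands after the values had been seen, and 12.4% of 32851 mouse promoters of the same length hold it. The NF-kappa-B motif, which 1.41% of promoters hold, is not in this window.
Ccl8: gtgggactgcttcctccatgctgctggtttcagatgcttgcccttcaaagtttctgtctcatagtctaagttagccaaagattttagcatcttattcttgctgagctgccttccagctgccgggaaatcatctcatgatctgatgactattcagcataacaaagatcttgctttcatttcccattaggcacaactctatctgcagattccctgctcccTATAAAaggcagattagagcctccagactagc

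Atf3 encodes a stress-induced transcription factor that marks axotomised sensory neurons. Its level was 7.44, 7.35 and 7.19 on the young naive arrays and 7.93 and 8.37 on the old ones. Both old arrays lay above every young one. Atf3 rose by 0.83 ± 0.13 (1.78-fold, limma, adjusted p = 0.037). After crush it read 12.30, 12.43 and 12.37 in young and 12.44, 12.56 and 12.40 in old ganglia, and the ages overlapped (0.10 ± 0.12, adjusted p = 1). The old naive levels therefore stayed far below those of injured ganglia of either age.

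Npy encodes neuropeptide Y, a peptide that large sensory neurons begin to make after axotomy. The young naive arrays read 7.45, 7.09 and 7.23, and the old ones 8.18 and 8.80. Old naive 2 was the higher of the old arrays for both Npy and Atf3. Npy rose by 1.23 ± 0.20 (2.35-fold, limma, adjusted p = 0.0404). Injured ganglia read 13.08, 12.71 and 12.96 in young and 12.60, 13.10 and 13.04 in old mice, with a difference of 0.00 ± 0.18. The difference between the age effects in the 2 states was -1.23 ± 0.27 for Npy and -0.73 ± 0.18 for Atf3, and neither passed the interaction test over all genes (limma, adjusted p = 0.999 for both). The interaction was past the threshold for 0 genes (0%), and 351 genes (3.04%) had an unadjusted p under 0.05. Both calls were near the threshold: without old naive 2 the differences were 0.92 for Npy (adjusted p = 0.282) and 0.61 for Atf3 (adjusted p = 0.258), and with the authors' processed values 0.89 (adjusted p = 0.115) and 0.58 (adjusted p = 0.0661). Of 4 measured NPY receptor genes 0 passed, against 0.13% of all genes, with differences from 0.09 to 0.41. The largest was that of Npy1r, at 9.86, 9.92 and 9.77 in young and 10.28 and 10.25 in old naive ganglia (limma, adjusted p = 0.527).

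The Atf3 promoter is shown as that of 1 of the 2 injury genes that rose. It is chr1:191183334-191183583 of GRCm38.p6, minus strand, from RefSeq. The ATF/CREB motif TGACGTCA (in 1.55% of promoters) and the AP-1 motif TGAGTCA (4.46%), both searched for on both strands, are not in this window. The capitals mark the half-site TGACG, which lies on the other strand and begins 7 bases before the start. That shorter motif is found in 17.8% of promoters and was chosen after the sequence had been seen. It is contained in TGACGTCA. The promoter of Npy, searched in the same way, holds 0 matches to any of these motifs.
Atf3: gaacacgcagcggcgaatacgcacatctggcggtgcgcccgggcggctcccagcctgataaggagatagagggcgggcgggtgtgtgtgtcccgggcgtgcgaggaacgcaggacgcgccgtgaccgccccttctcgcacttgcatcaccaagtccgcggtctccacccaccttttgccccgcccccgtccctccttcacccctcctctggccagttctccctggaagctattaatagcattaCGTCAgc

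Across 46 measured genes of nerve injury and regeneration, 2 rose (Atf3 and Npy) and 0 fell, and the median difference was 0.06. At an unadjusted p under 0.05, 9 of the 46 were higher (19.6%, against 3.27% of all genes) and 0 were lower. Among the 7 of these that did not pass, Cckbr, a cholecystokinin receptor gene, read 6.71, 6.44 and 6.38 in young and 7.36 and 7.32 in old ganglia (0.83, limma, adjusted p = 0.272). Its size is uncertain, and was 0.50 without background correction and 0.48 with the authors' processed values. The lowest naive levels of Cckbr, Ecel1 and Wfdc3 were at the 25th, 24.2th and 38.8th percentile of probes. Sez6l, a neuronal membrane protein gene, differed by 0.56, Ecel1, which encodes an endopeptidase of injured neurons, by 0.47, and Wfdc3 by 0.43. Flrt3, a cell adhesion gene, differed by 0.32, Gpr151, an orphan receptor gene, by 0.30 and Adcyap1, the gene of the neuropeptide PACAP, by 0.24. Other well-known members did not pass. Gal, the galanin gene, differed by 0.03, Sprr1a, which promotes axon growth, by 0.28 (adjusted p = 0.883), Jun by 0.20 (adjusted p = 0.862) and Gap43, whose protein fills growth cones, by -0.46 (adjusted p = 0.859). The Gap43 value rested on old naive 1, at 10.29, while old naive 2, at 11.39, lay within the young range. The mean level of the list relative to young naive was 0.04 and 0.15 on the old naive arrays. Among injured ganglia, 0 list members passed between the ages, and the median was -0.02.

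**Figure D2:**
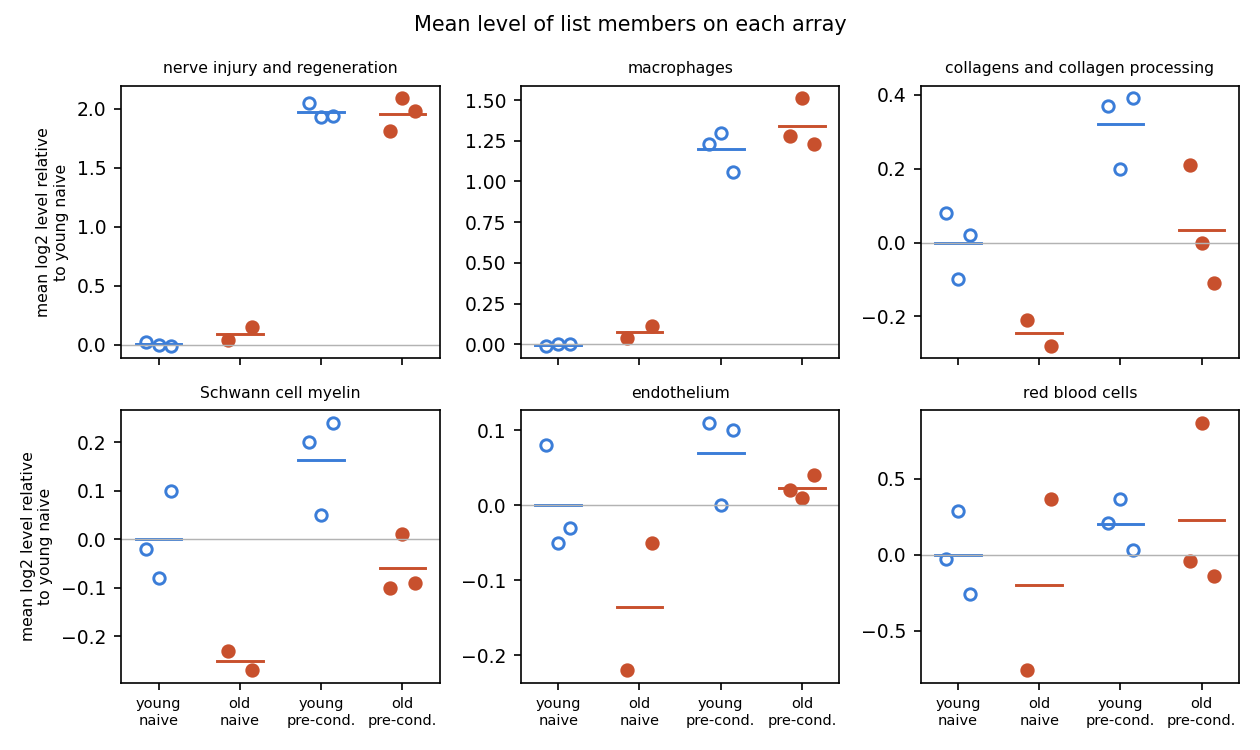
Mean log2 level of the members of 6 gene lists on each of the 11 arrays, as the difference from the young naive mean (vertical axis, scales differ). Points are arrays and horizontal bars group means. The old naive arrays read 0.04 and 0.15 for injury genes, -0.21 and -0.28 for collagen genes, and -0.76 and 0.37 for red blood cell genes.

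Csprs, a gene related to the repeated Sp100-rs cluster of the mouse, had the largest fitted difference. The young naive arrays read 6.36, 6.11 and 6.63, and the old ones 7.92 and 8.48. Csprs rose, with a fitted difference of 1.84 ± 0.18 (limma, adjusted p = 0.00139). Its level was above the 40th percentile of probes on 0 of the 6 young arrays and on all 5 old arrays, so it entered the test through the old arrays alone. The size is therefore uncertain, and was 1.21 without background correction and 1.17 with the authors' processed values. In injured ganglia the young arrays read 6.41, 6.42 and 6.40 and the old ones 7.83, 7.50 and 7.54, a difference of 1.21 ± 0.16 (adjusted p = 0.00714). The young level was low in both states, and the old level higher in both. Because this locus lies in a region of near-identical copies, RNA from related genes could bind the probe, and the gene's identity is uncertain.

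Azgp1 encodes zinc-alpha-2-glycoprotein, a secreted protein known to promote lipid breakdown in fat. Its young naive levels were 6.42, 6.32 and 6.84, and its old levels 7.71 and 7.56. Azgp1 rose by 1.11 ± 0.15 (limma, adjusted p = 0.0162) and differed by 1.09 among injured ganglia (adjusted p = 0.00423). Another of its probes differed by 0.06 ± 0.13, but stayed at or below the 46th percentile on naive arrays and is a weak check. The change therefore rests on 1 probe. The main probe was above the 40th percentile on 1 of 6 young arrays and on all 5 old ones, so it also entered the test through the old arrays. The difference was 0.69 without background correction, 0.67 with the authors' processed values and 0.58 with probes averaged (adjusted p = 0.073), the last short of the threshold. The ceramidase gene Acer2, whose product releases sphingosine from ceramide in the Golgi, read 7.97, 7.66 and 8.01 in young and 8.71 and 8.98 in old ganglia. It rose by 0.97 ± 0.14 (limma, adjusted p = 0.0265). Its difference after injury was 1.09 (adjusted p = 0.00413). The other 4 ceramidase genes tested lay between -0.09 and 0.10.

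Genes of cell adhesion and of cell surface proteins were also among those that rose. Pcdhb3, a clustered protocadherin gene, read 7.93, 7.66 and 7.88 in young and 8.72 and 8.63 in old ganglia and rose by 0.85 ± 0.12 (limma, adjusted p = 0.023). The other 10 Pcdhb genes tested lay between -0.30 and 0.25, and these genes are alike in sequence. Nxph1 encodes neurexophilin 1, a secreted ligand of alpha-neurexins. It read 8.43, 8.27 and 8.35 in young and 9.14 and 8.94 in old ganglia and rose by 0.69 ± 0.11 (limma, adjusted p = 0.0424). Vmn1r181, annotated as a vomeronasal receptor gene of a large family of close relatives, read 6.88, 6.86 and 6.66 in young and 7.45 and 7.44 in old ganglia. Its rise was 0.65 ± 0.10 (limma, adjusted p = 0.037), while the other 11 Vmn1r genes tested lay between -0.13 and 0.42. After injury Pcdhb3 differed by 0.64 (adjusted p = 0.0357) and Vmn1r181 by 0.93 (adjusted p = 0.00129), whereas Nxph1 differed by 0.21 and did not pass. The Pcdhb3 call after injury was lost without Young Pre-conditioned 3 (0.59, adjusted p = 0.147) and without Old Pre-conditioned 1 (0.62, adjusted p = 0.0576). The naive difference of Vmn1r181 was 0.41 without background correction (adjusted p = 0.0869) and 0.40 with the authors' processed values (adjusted p = 0.0942).

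Tyrp1 encodes a melanosomal enzyme of pigment synthesis and had the largest negative difference among the genes that passed. The young naive levels were 7.91, 8.06 and 7.93, and the old ones 6.57 and 6.40. Tyrp1 fell, with a fitted difference of -1.48 ± 0.16 (limma, adjusted p = 0.00249). Neither old naive array was above the 40th percentile of probes, so the size is uncertain. It was -0.96 without background correction and -0.93 with the authors' processed values. Other probes of the gene differed by -1.66 (adjusted p = 0.0269 over all probes) and -1.08 (adjusted p = 0.00457), in the same direction. In injured ganglia the young arrays read 7.37, 7.84 and 8.03 and the old ones 6.82, 6.65 and 6.74 (-1.01, adjusted p = 0.0118). Of the other pigment genes tested, Mlana differed by -0.21 and Slc45a2 by 0.10. Ednrb, the gene of an endothelin receptor found on melanocytes and satellite glia, differed by -0.70 (limma, adjusted p = 0.116). Its other probes differed by -0.91 ± 0.27 and -1.09 ± 0.36 (limma, adjusted p = 0.62 and 0.626 over all probes). Ednrb fell among injured ganglia (-0.69, limma, adjusted p = 0.0455), a call lost without Young Pre-conditioned 3 (-0.67, adjusted p = 0.175) and without Old Pre-conditioned 1 (-0.62, adjusted p = 0.0861). Without old naive 2, Tyrp1 differed by -1.39 with an adjusted p of 0.095.

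The Tyrp1 promoter is shown because it carries the core of the M-box, a motif known from promoters of pigment genes. It is chr4:80833963-80834212 of GRCm38.p6, plus strand, from RefSeq. The capitals mark TCATGTG, which begins 47 bases before the start. It was chosen after the values had been seen and searched for on both strands, and 3.25% of 32851 promoters hold it.
Tyrp1: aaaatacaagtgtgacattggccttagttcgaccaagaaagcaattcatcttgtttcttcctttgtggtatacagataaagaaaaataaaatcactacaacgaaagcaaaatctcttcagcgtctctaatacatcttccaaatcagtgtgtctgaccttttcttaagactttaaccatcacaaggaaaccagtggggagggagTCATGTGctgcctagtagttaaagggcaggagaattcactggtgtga

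Hoxb5 encodes a homeodomain factor of body-axis patterning that adult ganglia still express. Its young naive levels were 11.26, 11.29 and 11.30, and its old levels 10.48 and 10.45. The gap between the groups was far larger than the spread within either. Hoxb5 fell by 0.82 ± 0.09 (limma, adjusted p = 0.00249) and had a difference of -0.66 among injured ganglia (adjusted p = 0.00423). Of the 30 Hox genes tested it was the only one to pass in this fit. The other 29 lay between -0.42 and 0.26, and the other 8 Hoxb genes between -0.42 and 0.21. Nrep, which encodes P311, a small protein of regenerating neurons and muscle, read 11.24, 11.15 and 11.17 in young and 10.60 and 10.56 in old ganglia. Nrep fell by 0.61 ± 0.10 (limma, adjusted p = 0.037), and its difference after injury of -0.36 did not pass.

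The remaining genes that fell encode secreted proteins and a chaperone. Vtn encodes vitronectin, an adhesive plasma and matrix protein, and read 9.55, 9.10 and 9.47 in young against 8.24 and 8.34 in old ganglia. It fell by 1.08 ± 0.16 (limma, adjusted p = 0.023). The collagen gene Col26a1 fell by 0.65 ± 0.10 (limma, adjusted p = 0.037), from 8.33, 8.29 and 8.27 to 7.66 and 7.64. Serpinh1 encodes HSP47, the chaperone that procollagen needs to fold, and fell by 0.77 ± 0.12 (limma, adjusted p = 0.037), from 8.0, 7.79 and 8.12 to 7.15 and 7.24. Among injured ganglia Vtn (-1.06, adjusted p = 0.00714) and Col26a1 (-1.14, adjusted p = 0.000308) fell as well. Serpinh1 differed there by -0.38 and did not pass.

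Genes of collagen and its processing lay on the low side in old ganglia. Of 34 measured, Serpinh1 fell and 0 rose, and the median was -0.18. At an unadjusted p under 0.05, 9 were lower (26.5%, against 3.24% of all genes) and 1 was higher, P4ha2, which encodes a subunit of a collagen prolyl hydroxylase (0.24). Lox, the gene of the collagen cross-linking enzyme lysyl oxidase, read 9.42, 8.70 and 9.16 in young and 8.08 and 7.52 in old ganglia (-1.30, limma, adjusted p = 0.0616). It just missed the threshold here and fell among injured ganglia (-1.41, adjusted p = 0.0122). Col1a1 read 9.92, 9.47 and 9.72 against 8.52 and 8.43, and its difference of -1.23 ± 0.42 did not pass (limma, adjusted p = 0.602). The groups did not overlap for Col1a1, but its error, drawn from all 4 groups, was large. Other chain genes gave -0.74 (Col1a2), -0.55 (Col3a1), -0.55 (Col6a1), -0.50 (Col4a2), -0.42 (Col4a1) and -0.38 (Col28a1). On the old naive arrays the mean of the list relative to young naive was -0.21 and -0.28, and on the young ones 0.08, -0.10 and 0.02. After injury the median was -0.20, with 13 members lower at an unadjusted p under 0.05, against 2.56% of all genes.

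Of 35 other matrix and fibroblast genes 0 passed, and the median was -0.08. At an unadjusted p under 0.05, 8 were lower (22.9%, against 3.24% of all genes) and 0 higher. Fbln2, a fibulin gene, read 11.54 on each young array and 11.06 and 10.90 on the old ones (-0.56, limma, adjusted p = 0.0616). Its other probes differed by -0.12, on a probe at or below the 39.4th percentile on naive arrays, and by -0.45. Mfap5, a microfibril gene, differed by -0.69, Fbln1 by -0.56, the biglycan gene Bgn by -0.45, and the basement membrane genes Nid1 and Lama2 by -0.44 each. Endothelial genes were also on the low side. Of 16 measured 0 passed, 5 were lower at an unadjusted p under 0.05 (31.2%, against 3.24% of all genes), and the median was -0.19. Tie1, an endothelial receptor gene, read 7.31, 7.48 and 7.60 in young and 6.95 and 6.98 in old ganglia (-0.49, limma, adjusted p = 0.249). The endothelial mean was -0.22 on old naive 1 and -0.05 on old naive 2, the latter no lower than 1 of the young arrays, and without old naive 1 the list median was -0.05. The part of these cell types in the matrix values was not tested.

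**Figure D3:**
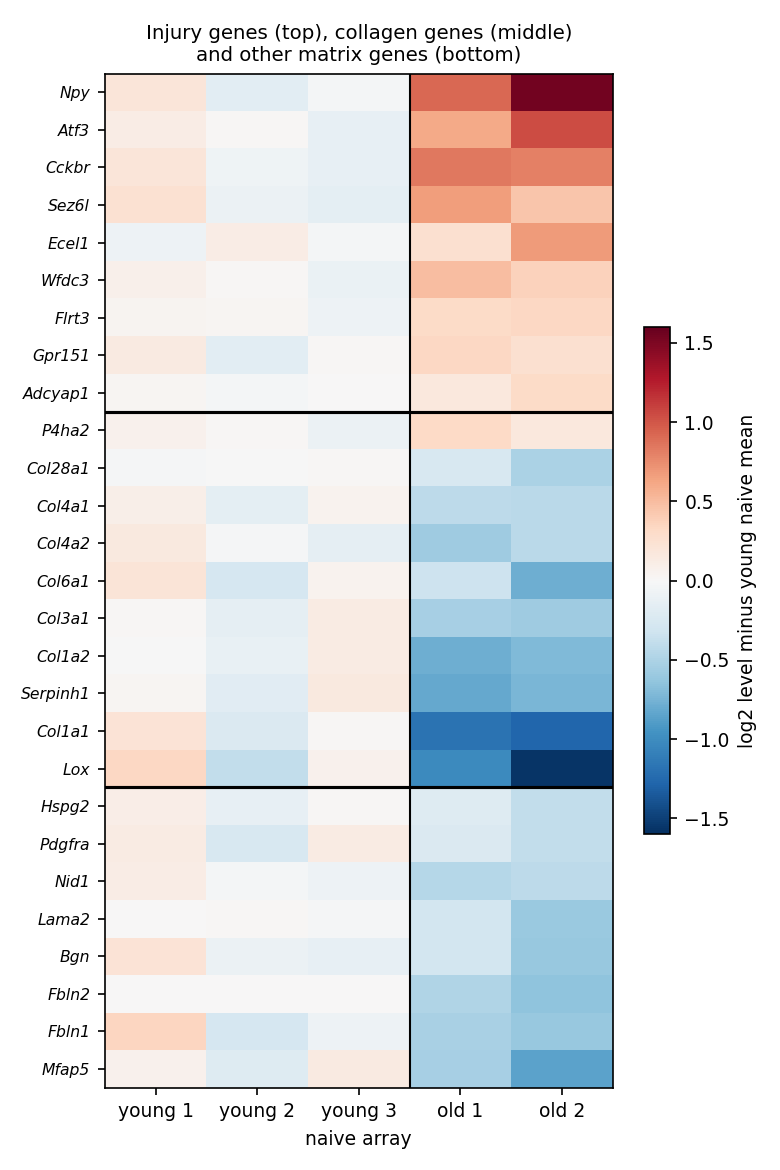
Level on each naive array, as the log2 difference from the young naive mean, of the list members with an unadjusted p under 0.05. Rows are 9 nerve injury genes, 10 collagen and collagen processing genes and 8 other matrix genes, chosen by that p, so their direction is fixed by the choice and is no test. Red is higher and blue lower than the young mean. Of these genes only Npy, Atf3 and Serpinh1 passed the adjusted test in the 11-array fit.

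Myelin genes of Schwann cells had negative differences in 15 of 17 cases, against 46.5% of all genes, with a median of -0.20, and 0 passed. Pmp2, the gene of a fatty acid binding protein of peripheral myelin, read 9.45, 9.18 and 10.06 in young and 8.24 and 8.0 in old ganglia (-1.44, limma, adjusted p = 0.0556). Pmp2 fell among injured ganglia (-1.45, adjusted p = 0.0184), but not without Young Pre-conditioned 3 (-1.35, adjusted p = 0.0812). Fa2h, whose enzyme makes hydroxylated myelin lipids, differed by -0.50, Pmp22 by -0.36 and Cnp by -0.28. Mbp, the myelin basic protein gene, differed by 0.10 on its brightest probe and by -0.05 and -0.28 on others. Without old naive 2 the list median was -0.06. Of 13 satellite glia genes 0 passed, 7 had positive differences, and the median was 0.02. At an unadjusted p under 0.05, 3 were lower (23.1%, against 3.24% of all genes) and 1 was higher. Ednrb had the smallest p of the list (-0.70, limma, adjusted p = 0.116), with -0.91 and -1.09 on its other probes. Apoe, which encodes a lipid carrier, differed by -0.31, and Gja1, the connexin 43 gene, by -0.26. Pou3f1, a transcription factor gene, was the higher one (0.27). Cdh19, a cadherin gene, differed by 0.33 but had an unadjusted p of 0.05 or more.

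Macrophage genes were mixed. Of 25 measured 0 passed, and the median was -0.02, with 10 positive and 15 negative differences. With the filter at the 60th percentile on all arrays, which leaves out dimmer genes, the median was 0.40. At an unadjusted p under 0.05, 7 were higher (28%, against 3.27% of all genes) and 0 lower. The lysozyme gene Lyz2 read 10.68, 10.57 and 10.72 in young and 11.40 and 11.33 in old ganglia (0.71, limma, adjusted p = 0.0556). Its other probes differed by -0.30 ± 0.22, on a probe that stayed at or below the 25.6th percentile on naive arrays, and by -0.21 ± 0.42, and its close relative Lyz1 by 0.42, so the value of Lyz2 is uncertain. F13a1, the gene of a clotting factor subunit made by macrophages, differed by 0.66, the Fc receptor gene Fcgr2b by 0.47, Gpnmb by 0.47, the mannose receptor gene Mrc1 by 0.40 and Ms4a6d by 0.38. Gpnmb rose among injured ganglia (1.71, limma, adjusted p = 0.00212). The macrophage mean was 0.04 and 0.11 on the old naive arrays and -0.01 to 0.00 on the young ones. The part of macrophage number in the Ccl8 difference was not tested.

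**Figure D4:**
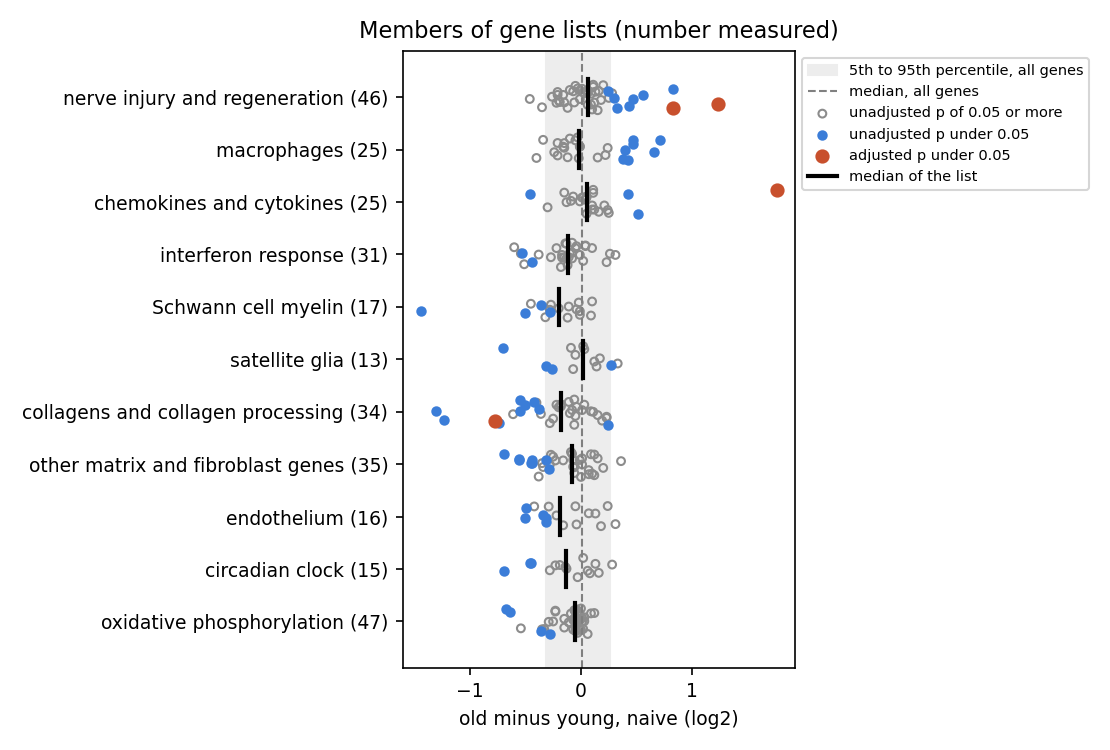
Old minus young difference in naive ganglia (log2, horizontal axis) of each measured member of 11 gene lists. Points are genes, black bars list medians, the dashed line the median of all genes and the grey band their 5th to 95th percentile. Collagen genes have a median of -0.18 and myelin genes of -0.20, while injury and macrophage genes have medians of 0.06 and -0.02 with a few members far to the right.

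Clock genes were mixed. The smallest p among them was that of Dbp, a clock-controlled transcription factor gene that read 11.11, 11.09 and 11.16 in young and 10.57 and 10.30 in old ganglia (-0.69, limma, adjusted p = 0.0658). Dbp fell among injured ganglia (-0.67, adjusted p = 0.0306), but not without Young Pre-conditioned 3 (-0.56, adjusted p = 0.0985). Of 15 clock genes 0 passed in naive ganglia, 6 had positive and 9 negative differences, and the median was -0.13, or 0.02 with the filter at the 60th percentile. Ciart and Nr1d2, both transcriptional repressors of the clock, differed by -0.46 and -0.45, and Per1, a core clock gene, by 0.28. The time of day at which ganglia were taken is not given in the sources used here, so time of day and age cannot be told apart for these genes. Hsd11b1, whose enzyme regenerates active glucocorticoid, differed by 0.64 on its brightest probe (limma, adjusted p = 0.0768), short of the threshold. Another of its probes passed when all probes were tested (0.83, adjusted p = 0.0333), as did the mean of its probes (adjusted p = 0.0456), and the gene rose among injured ganglia (0.76, adjusted p = 0.0105).

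The naive and the injured comparison of ages share no arrays, although they share the normalization, the probe filter and the estimate of spread. Among injured ganglia 27 genes passed (0.234%), of which 14 rose and 13 fell in old mice. Of the 15 genes that changed in naive ganglia, 14 had the same sign after injury, and Npy was at 0.00. The share of all genes with the same sign in both states is not given here. In all, 10 were past the threshold there in the same direction, which is 66.7% of the naive set and 37% of the injured set. These 10 include Csprs and Azgp1, which entered both comparisons through the old arrays. They also include Tyrp1, which was above the filter's percentile on 6 young and 2 old arrays. The filter could have favoured the agreement of these genes, which was not tested. Without Young Pre-conditioned 3, 9 of the 15 were past the threshold there in the same direction, and without Old Pre-conditioned 1 also 9. The other 5 genes, Npy, Atf3, Nxph1, Nrep and Serpinh1, did not pass after injury. None of the 15 passed the interaction test, so an unequal age difference in the 2 states was not shown for any of them. Across all 11529 genes the correlation of the differences was 0.341 (Pearson) and 0.272 (Spearman), given as a description, since genes are not independent replicates.

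**Figure D5:**
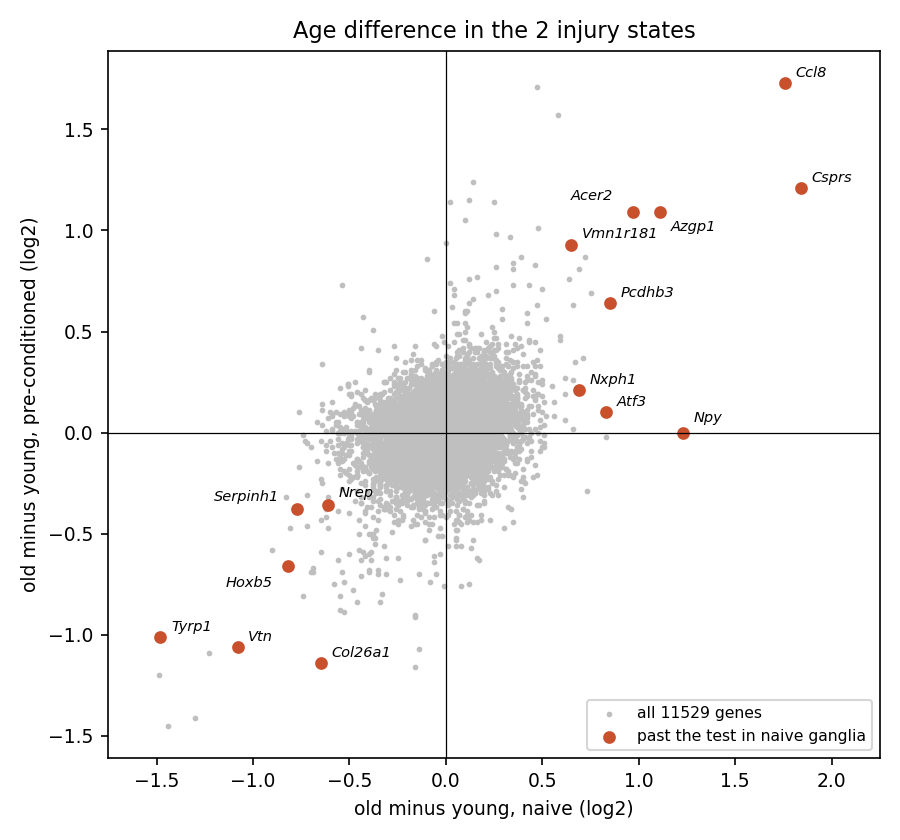
Old minus young difference (log2) of 11529 genes in naive ganglia (horizontal axis) and in pre-conditioned ganglia (vertical axis). Each point is a gene, with the 15 that passed in naive ganglia in red. Ccl8 lies at 1.76 and 1.73, Tyrp1 at -1.48 and -1.01, and Npy at 1.23 and 0.00.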

How the data were processed

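The authors deposited non-normalized probe intensities for 25697 Illumina probes and a table of processed intensities of the same arrays. The submitters' processing notes name RMA. Scanner settings were not found in the labels or files. The labels put 11 arrays in 4 groups, and 1 further column matched no labelled sample and was not used.

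Intensities were background-corrected (normexp, offset 50), quantile-normalized and log2-transformed with limma 3.58.1 (R 4.3.3). The 17086 probes that exceeded the 40th percentile on at least 2 arrays entered the test. Platform annotation named 23978 probes, and the brightest probe stood for each of 11529 genes. One limma fit (lmFit, eBayes) of all 11 arrays as 4 groups gave the age contrasts and their interaction, as two-sided tests adjusted over all genes by Benjamini-Hochberg. With 2 against 3 arrays a permutation test cannot go below p = 0.1, so array means of gene lists carry no test. The number of arrays limits the precision. On simulated data, 200 changed genes were called in 8% of cases at a log2 difference of 0.5 and in 98% at 1. Of the calls, 5.88% and 7.11% were false. The simulated noise was normal, independent and for each gene alike on all arrays. These shares therefore need not hold for the measured arrays.

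The labels do not state pairs, and deviations of same-numbered arrays correlated at -0.34 to 0.25, so numbers were not taken as pairs. This check cannot exclude pairs, as deviations of the 2 old naive arrays mirror each other and differently numbered arrays were not compared. All genes that passed are named. From each gene list described, up to 6 members that passed were to be named, or the 2 of smallest p where none did. Further list members, gene families and the motifs marked in capitals were chosen after their values were seen. The comparison, members and lists were chosen with earlier results of these data known. Alternatives covered background correction, normalization, filter, probe choice, variance model, replicate block and arrays left out.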

Additional observations from a re-analysis of the deposited data

Results flagged for a closer look

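A probe without a gene name, ILMN_2675000, lies outside the gene comparison and was the only one of 1017 unnamed probes tested that passed the threshold in limma. It read 7.68, 7.58 and 7.60 on the young naive arrays and 8.85 and 8.76 on the old ones, a difference of 1.19 ± 0.13 (limma, adjusted p = 0.00384 over all probes). Its difference among injured ganglia was 0.89 (adjusted p = 0.00933).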

How the results depend on the processing

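The number of genes past the threshold in naive ganglia, 15 (9 higher, 6 lower), depended on the processing. It was 3 with median scaling (2 higher, 1 lower), 3 with the filter at the 60th percentile on all arrays (0 higher, 3 lower), 2 when only the 5 naive arrays were fitted (1 higher, 1 lower) and 6 with a minimum of 2-fold (4 higher, 2 lower). Cyclic loess gave 5 higher genes and a trended, robust variance 10 lower genes. With the replicate number as a block it was 6 (3 higher, 3 lower), and 5 of the 6 were among the 15. The labels do not say if the numbers pair the arrays. Leaving out 1 naive array gave 2 to 7 genes, 2 to 4 higher and 0 to 5 lower: 4 without young naive 1, 7 without young naive 2, 5 without young naive 3, 6 without old naive 1 and 2 (Ccl8 and Csprs) without old naive 2. In settings chosen after seeing the data, the count was 8 (5 higher, 3 lower) without Young Pre-conditioned 3 and 23 (13 higher, 10 lower) without Old Pre-conditioned 1, and without both there were 10 lower genes. In these settings the arrays were left out of the fit alone, after normalization, filter and probe choice on all 11 arrays. Their removal there could change the naive comparison only through the shared spread. Among injured ganglia median scaling gave 12 genes against 27, while leaving out Young Pre-conditioned 3 or Old Pre-conditioned 1 gave 28 and 45. Over these settings the 15 genes stayed past the threshold in 139 checks and missed it in 105, and 0 changed sign. Ccl8 passed in 16 of 16 settings, Csprs and Tyrp1 in 15 of 16, Hoxb5 in 14 of 17 and the other 11 genes in 4 to 10 settings. The filter at the 60th percentile left out Tyrp1, Serpinh1, Col26a1 and, except for Nxph1, every gene that rose, Ccl8 and Csprs included. For these genes that setting is no check. The median of macrophage genes ranged from -0.08 to 0.40, that of clock genes from -0.16 to 0.02 and that of collagen genes from -0.25 to -0.12. The causes of these changes were not tested.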

Other observations

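Of 31 measured genes of the interferon response 0 passed, and 24 had negative differences, against 46.5% of all genes. The median was -0.12 in naive and 0.15 in injured ganglia, and the difference between these was not tested. Irf7, a transcription factor of this response, differed by -0.53 (limma, adjusted p = 0.545) and Rsad2, an antiviral enzyme gene, by -0.44 (adjusted p = 0.717). Of 15 MHC class I genes 0 passed, with a median of 0.01. Neutrophil genes differed between the old arrays: the mean relative to young naive was -0.12 on old naive 1 and 0.49 on old naive 2, and the median of the 14 genes, 0.15, turned to -0.16 without old naive 2. Red blood cell genes read -0.76 on old naive 1 and 0.37 on old naive 2, so the old naive arrays lay on either side of the young range of -0.26 to 0.29.

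Of 49 ion channel and receptor genes of sensory neurons 0 passed, with a median of 0.06. Of 26 neuropeptide, transmitter enzyme and trophic receptor genes Npy was the only one to pass. Calb2, the calretinin gene, read 9.38, 9.60 and 9.74 in young and 8.92 and 8.79 in old ganglia (-0.72, limma, adjusted p = 0.463). The somatostatin gene Sst differed by -0.47 and the CGRP-beta gene Calcb by -0.44. Of 47 oxidative phosphorylation genes 0 passed, 38 had negative differences (against 46.5% of all genes), and the median was -0.05. The glial water channel gene Aqp4 differed by 0.50 (limma, adjusted p = 0.254), and the complement gene C4b by 0.42 (adjusted p = 0.545). Of 41 gene lists examined, 24 are not described one by one. In these, Atf3, an immediate early gene, was the only gene past the threshold, and medians ran from -0.14 (heat shock proteins and chaperones) to 0.17 (complement).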
